A study of Mus musculus with 6 samples.

Results

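Antisense RNAs are transcribed from the strand opposite another gene, and 864 of them were measured here, of 15796 genes in the table. They were all the genes that the authors' annotation classes as antisense RNA with a mean of at least 0.5 FPKM (fragments scaled to exon length and to the size of the library) over the 6 libraries, apart from Gm45774, which was left out. A further 87 of the 952 genes of that class lay under 0.5 FPKM. The 3 just under the limit were C230037L18Rik at 0.496, CT010505.3 at 0.497 and Gm14252 at 0.499 FPKM, and the 3 just over it were Gm15413 at 0.504, 4933430L12Rik at 0.509 and Gm17231 at 0.517 FPKM.

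RNA came from the mouse line MC3T3-E1, pre-osteoblastic cells that can be driven to form bone matrix in culture. Controls were 3 libraries from cells given a plasmid with EGFP, a fluorescent protein, and carry the genotype label WT. Overexpression libraries, also 3, came from cells given a plasmid with Hsd11b1, which encodes the enzyme 11β-HSD1. All 6 received 11-DHC (11-dehydrocorticosterone), the inert steroid that this enzyme converts to corticosterone, so the comparison asks what the added enzyme changes in the presence of its substrate. The labels do not give the share of cells that took up the plasmid, and in such bulk samples fewer cells of a kind and less RNA per cell cannot be told apart. Nor do they say whether replicates were separate cultures, so each p-value reflects the spread among these libraries alone, which may be technical.

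An antisense RNA can start back to back with its partner at a shared promoter region, run through the partner's end from the opposite side, or lie wholly inside it. Some are known to act on the partner in cis, as Airn does on Igf2r and Kcnq1ot1 on its imprinted domain, and some shield or open chromatin there. Many others are short-lived by-products of promoters that the nuclear exosome, an RNA-degrading complex, removes. For most of the RNAs below no function is known.

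The partner was the gene named in the antisense RNA's own symbol for 79 of the 864, an overlapping gene on the opposite strand for 757, and a protein-coding gene that starts within 5 kb for 12. No partner was found for 16, and the partner of 16 others was not in the table. The 832 with a listed partner have 806 distinct partners, so some share one. By position, 412 antisense RNAs lay inside the partner, 231 were head-to-head with it, 181 were tail-to-tail and 24 had another arrangement.

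Head-to-head pairs either run away from each other or overlap at the ends where they start. The promoter windows (250 bases before to 50 after each start, RefSeq, build GRCm38.p6) are shown for 2 such pairs in which the antisense RNA was higher with overexpression, one with the partner also higher and one with the partner not past the threshold. Capitals mark CG pairs. The starts of 0610039K10Rik (chr2:163644600-163644899, plus strand) and Serinc3 (chr2:163645094-163645393, minus strand) lie 293 bases apart. These genes run towards each other from their starts, and the windows leave out most of the stretch between. The starts of BC051226 (chr17:33909129-33909428, minus strand) and Daxx (chr17:33909195-33909494, plus strand) lie 267 bases apart. These genes run away from each other, and their windows overlap and repeat each other's complement. In GENCODE M21, used for the arrangements and exon shares below, BC051226 starts at 33909317 and Daxx at 33909414, which differs from RefSeq.
0610039K10Rik: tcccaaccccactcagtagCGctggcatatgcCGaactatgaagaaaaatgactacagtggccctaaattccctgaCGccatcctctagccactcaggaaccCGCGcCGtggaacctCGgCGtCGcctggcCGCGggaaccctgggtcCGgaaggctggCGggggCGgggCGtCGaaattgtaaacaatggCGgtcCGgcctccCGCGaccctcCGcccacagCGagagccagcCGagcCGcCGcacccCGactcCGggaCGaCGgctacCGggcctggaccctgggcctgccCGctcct
Serinc3: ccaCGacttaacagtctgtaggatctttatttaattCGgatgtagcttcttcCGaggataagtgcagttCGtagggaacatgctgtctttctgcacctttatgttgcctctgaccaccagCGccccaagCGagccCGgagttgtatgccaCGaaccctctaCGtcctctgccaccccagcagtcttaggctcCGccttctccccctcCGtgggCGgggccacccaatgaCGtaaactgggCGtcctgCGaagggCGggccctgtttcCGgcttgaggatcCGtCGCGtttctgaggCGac
BC051226: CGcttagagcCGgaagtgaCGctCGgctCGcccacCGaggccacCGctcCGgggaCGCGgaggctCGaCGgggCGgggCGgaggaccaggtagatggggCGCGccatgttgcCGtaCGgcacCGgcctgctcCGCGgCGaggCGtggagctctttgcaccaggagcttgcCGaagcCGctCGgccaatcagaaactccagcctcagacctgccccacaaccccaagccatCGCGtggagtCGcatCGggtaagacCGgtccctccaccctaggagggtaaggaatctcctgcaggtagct
Daxx: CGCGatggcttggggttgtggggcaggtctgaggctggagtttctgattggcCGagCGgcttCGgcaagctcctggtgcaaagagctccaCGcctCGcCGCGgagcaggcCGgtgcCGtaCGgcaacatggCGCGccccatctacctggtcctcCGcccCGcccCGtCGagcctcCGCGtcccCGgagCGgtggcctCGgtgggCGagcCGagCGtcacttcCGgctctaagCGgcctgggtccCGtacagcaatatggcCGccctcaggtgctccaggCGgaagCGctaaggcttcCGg
The windows hold 31, 21, 31 and 33 CG pairs in the order given, against a median of 7 over the 32851 promoters of the table. None holds AGAACA, a short site bound by the glucocorticoid receptor (searched on both strands), nor TATAAA. RefSeq gave a promoter for 287 of the 864 antisense RNAs. Of those, 18.8% held AGAACA on either strand, beside 19.0% of all promoters, and 0.348% held the receptor's palindromic site, beside 0.475%. TATAAA, read on the gene's strand, was in 3.83% of them and in 8.32% of all promoters. Median GC content was 56.0% against 52.7%. Of the antisense RNAs that rose with overexpression, 5 of the 14 with a promoter held AGAACA, and of those that fell, 1 of 3.

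The targeted gene went with the labels. Hsd11b1 stood at 1.90, 0.404 and 0.275 FPKM in the controls, whereas with the plasmid it stood at 323, 315 and 345 FPKM, with no overlap. The exact two-sided permutation test gave p = 0.1, the smallest that 3 against 3 libraries allow. Pre-osteoblast markers summed to 3332 to 3605 FPKM in controls and 3431 to 3605 in overexpression, with 8 of 10 listed. Of markers of other cells, 3 of 6 macrophage genes summed to 11.9 to 13.4 and 11.5 to 12.7 FPKM, 3 of 5 endothelial genes to 0.418 to 0.452 and 0.540 to 0.639, and 1 of 4 adipocyte genes to 0.101 to 0.159 and 1.14 to 1.36, while none of 5 skeletal muscle genes was listed. The part of these other cells' markers in the results was not tested. Recovered reads per library ran from 16264225 to 58665270, and control 2 (34948093) and overexpression 3 (58665270) were the deepest of their groups.

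How far an antisense RNA's exons lie within exons of the opposite strand was measured before any change, because the libraries were made with a stranded kit but the strand setting of the authors' counting is not given in the sources used here. Counted without strand, reads from the shared bases would go to neither or to both genes, and an antisense RNA and its partner cannot be told apart there. Of the 864, 88 shared no exon base with opposite-strand exons, 575 shared under 50%, 152 shared 50% or more but not all, and 42 lay wholly within such exons. GENCODE M21 held no model for the other 7.

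The more exon bases were shared, the higher the level. Median FPKM was 1.32 with no exon base shared, 3.17 with under 50%, 6.62 with 50% or more and 22.3 with all. As a percent of the partner's FPKM, the medians were 15.7%, 53.7%, 114% and 172%. Pearson's r between the log2 levels of antisense RNA and partner was 0.101 over 76 pairs with no shared exon base and 0.827 over 40 pairs with all bases shared. These r values are across genes of the same libraries, which are not independent replicates, and each is a description. Where the antisense exons lay wholly inside the exons of 1 listed gene, its recovered reads were at or below that gene's in all 6 libraries in 39 of 39 pairs. With no shared exon base and a listed partner this was so in 71 of 76. Exons wholly inside those of 1 gene are no longer than that gene's, so these counts cannot show whether reads were shared.

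**Figure D1:**
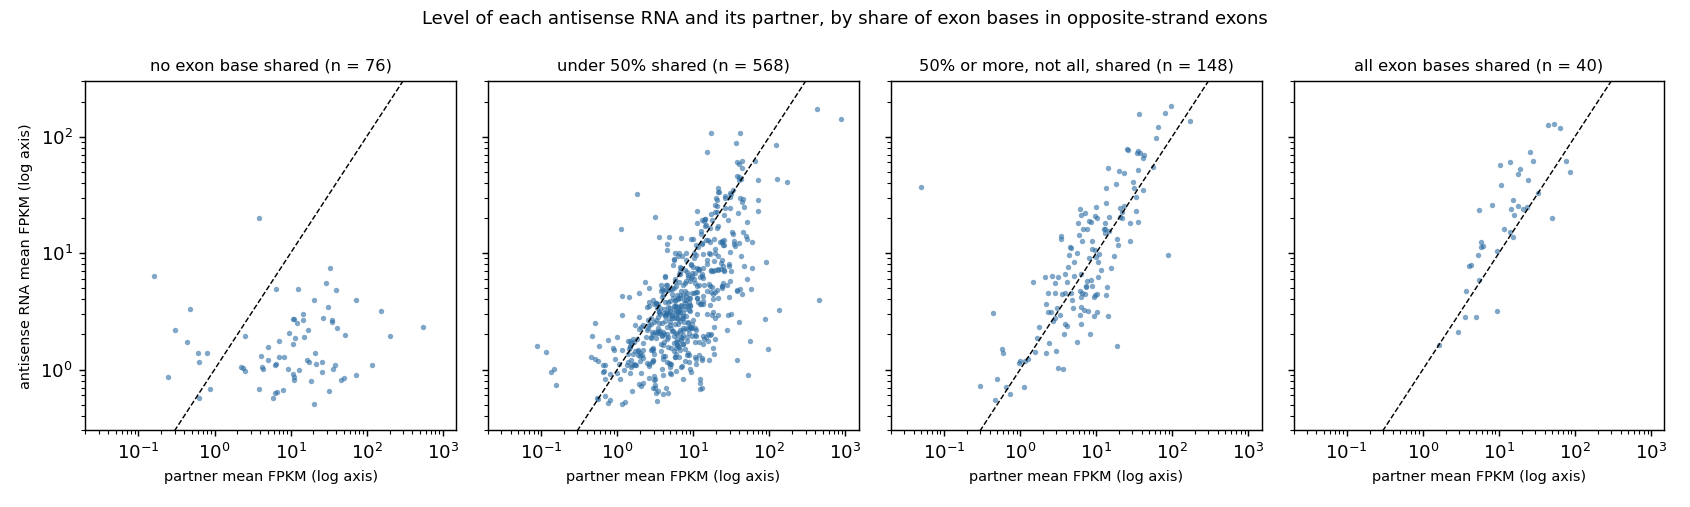
Mean FPKM over the 6 libraries of each antisense RNA (vertical, log axis) against that of its partner (horizontal, log axis), in 4 panels by the share of antisense exon bases that lie in opposite-strand exons; each point is 1 pair and the dashed line marks equal levels. Points gather around or above the line as the share grows, with r rising from 0.101 in the panel with no shared base to 0.827 in the panel with all bases shared.

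Shared exon bases and the level of the covering gene also went with which antisense RNAs were listed at all. GENCODE M21 has 76 antisense RNAs wholly within opposite-strand exons. Of the 39 whose covering gene was at 5 FPKM or more, 34 were listed, with a median of 25.1 FPKM. Of the 15 whose covering gene was listed under 5 FPKM, 6 were listed, and of the 22 whose covering gene was not listed, 2. Among annotated antisense RNAs with no exon base shared, 113 of 1220 (9.26%) were listed, against 670 of 1365 (49.1%) with under 50% shared. The share listed was 160 of 298 (53.7%) with 50% or more and 42 of 76 (55.3%) with all. It thus rose little beyond the step from none shared. For some pairs with a high share, values of the antisense RNA are therefore given below beside those of its partner. For others only the partner is named, and their changes may not be separate from the partner's.

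Most antisense RNAs were weak. Mean levels ran from 0.504 to 181 FPKM with a median of 3.45, 537 were under 5 FPKM, 200 reached 10 and 12 reached 100. The median antisense RNA had 723 reads over the 6 libraries and the lowest had 77, and none was at 0 in any library. In 259 of 832 pairs the antisense RNA stood above its partner in FPKM.

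The strongest was Gm43126 (chromosome 6, 127122966 to 127126155, plus strand), tail-to-tail with the cyclin gene Ccnd2, with 86.7% of its exon bases in Ccnd2 exons. It was at 226, 230 and 198 FPKM in the controls against 141, 150 and 143 with overexpression. All overexpression libraries were thus below all controls, 145 ± 4.38 against 218 ± 17.2 FPKM (SD, n = 3 each), a change of -0.59 ± 0.08 on the log2 scale (SE; limma, adjusted p = 0.00224). Ccnd2 itself fell from 116 ± 1.09 to 77.8 ± 2.48 FPKM (-0.57, limma adjusted p = 0.000718). Prss23os, inside the serine protease gene Prss23 with 54.3% shared, was at 103, 112 and 109 against 129, 138 and 140 FPKM and also rose (0.33, limma adjusted p = 0.0176), as did Prss23 (58.5 to 71.8 FPKM).

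The other 8 of the 10 strongest did not pass the threshold. Of these, 7 are described: Gm11626 in the interferon-induced Ifi35 (152 ± 9.67 in controls, 168 ± 4.57 FPKM in overexpression), Gm37401 beside the GTPase gene Rhoa (163 and 149), Apol7d beside the fibronectin gene Fn1 (125 and 159), Gm19412 in the peptide-loading gene Tapbp (139 and 131), Gm12999 in the ATP synthase inhibitor gene Atpif1 (134 and 123), Gm44170 in the translocon gene Sec61a1 (120 and 132) and Gm16567 in the complement gene C1s1 (125 and 112). Gm12999, Gm44170 and Gm16567 lie wholly within opposite-strand exons. Sec61a1 was at 42.3 FPKM in controls and 46.3 in overexpression, and C1s1 at 68.5 and 60.3. Apol7d shares 14.0%, and Fn1 was at 832 FPKM in controls, well above it.

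With Hsd11b1 overexpression, 59 antisense RNAs rose and 25 fell (limma on log2(FPKM + 1), adjusted p under 0.05 over all 14234 genes tested), and 780 did not pass. That is 6.83% higher and 2.89% lower, or 9.72% called. Over all genes tested 11.4% were called, 6.01% higher and 5.42% lower. The antisense share is thus near the background, a little under it, and its split leans toward higher. The median log2 difference was 0.04 over the antisense RNAs and -0.01 over all genes tested. Above 0 were 531 of the 864 antisense differences, beside 6696 of the 14234 over all genes tested. Some antisense RNAs share a partner, so these are not independent changes. Without control 2 and overexpression 3, 36 were higher and 17 lower. Leaving out 1 library moved the higher count by over 1.5 times only for overexpression 2 (38), and the lower count for control 3 (14), overexpression 1 (11) and overexpression 2 (14). Calls kept in 8 or fewer of the alternatives run (15 or 16 each) were those of Gm33051, 4930404A12Rik, Gm15701, Gm13748, Gm13556, Gm13070, Gm15540, 6330562C20Rik, AC160411.1 and Gm17259, and 36 of the 84 passed with each library left out. In the authors' deposited table, 56 of the 84 have an adjusted p under 0.05 in the same direction.

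Changes were modest on the scale tested, log2(FPKM + 1), which holds for every log2 difference given here. Adding 1 makes the change of a low gene look smaller than its change in FPKM. On that scale the 59 rose by 0.28 to 1.30 (median 0.53) and the 25 fell by 0.24 to 0.85 (median -0.46). Of the partners, 71 of 789 tested rose and 44 fell (14.6% called). Of the 59 higher antisense RNAs, 40 had a partner that rose and 18 a partner that did not pass, and the partner of 1, E430024P14Rik (opposite the GTPase activator gene Tagap), was under the level limit. Of the 25 lower ones, 21 had a partner that fell and 4 one that did not pass. None had a partner called the other way. Among antisense RNAs not called, 33 partners rose, 25 fell and 674 did not pass, and for 48 no partner was tested.

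**Figure D2:**
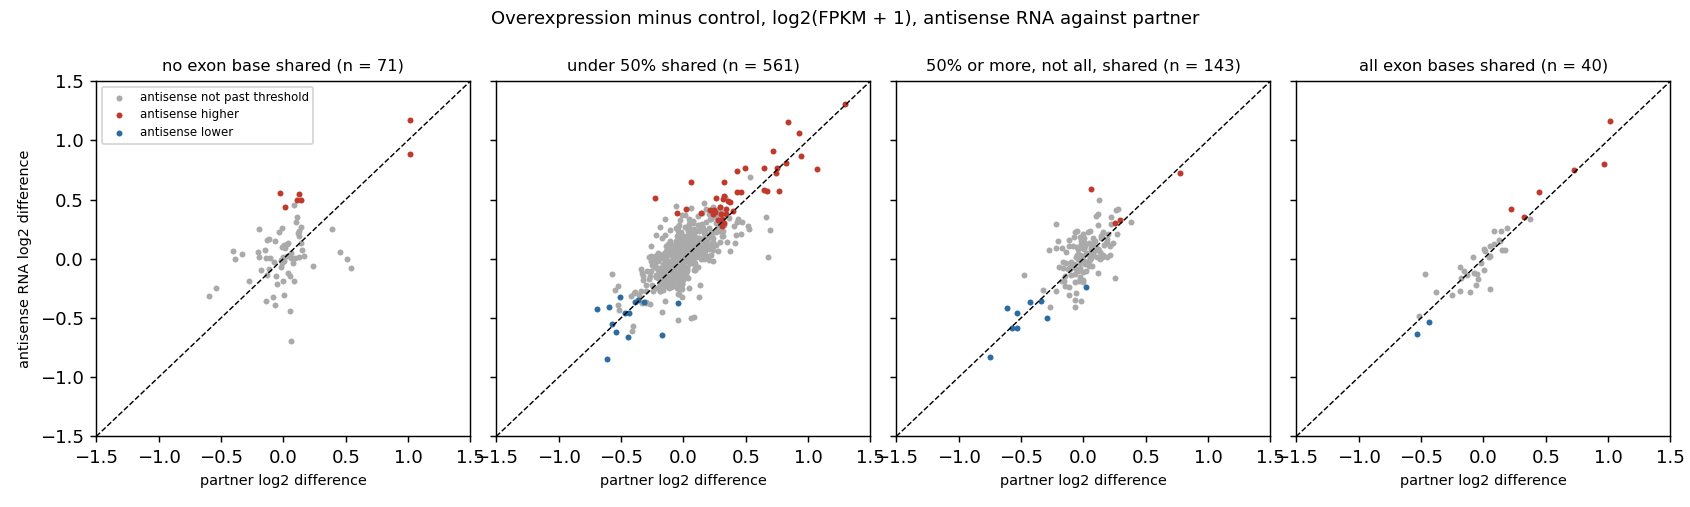
Log2 difference, overexpression minus control, of each antisense RNA (vertical) against that of its partner (horizontal) on the log2(FPKM + 1) scale, in 4 panels by shared exon bases; red points are antisense RNAs that rose, blue ones that fell, grey ones did not pass, and the dashed line marks equal differences. The called pairs that moved the same way lie near the line, and with all bases shared nearly all points do (r = 0.945 over 40 pairs).

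By shared exon bases, 7 of 88 rose and 0 fell with none shared (7.95% called), and 42 rose and 14 fell of 575 with under 50%. With 50% or more, 4 rose and 9 fell of 152, and with all, 6 rose and 2 fell of 42 (19.0% called). Limma called 0 of the 32 antisense RNAs with no listed partner, 2 of which had an unadjusted p under 0.05. Pearson's r between the log2 differences of the pair was 0.529 over 71 pairs with no base shared, 0.781 over 561, 0.729 over 143 and 0.945 over 40 with all shared. The 2 differences come from the same libraries, so r is a description. By arrangement, 34 rose and 13 fell of the 412 inside their partner, 13 and 3 of the 231 head-to-head, 8 and 9 of the 181 tail-to-tail and 4 and 0 of the 24 others.

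The smallest p belonged to Gm42538 (chromosome 3, 101424615 to 101426936, minus strand), inside Igsf3, which encodes a cell-surface immunoglobulin-family protein, with 33.1% of its exon bases shared. It was at 13.4, 13.3 and 14.0 FPKM in controls and 34.5, 34.2 and 36.1 in overexpression, a log2 difference of 1.30 ± 0.06 (SE, limma adjusted p = 7.86e-06). Igsf3 rose equally, from 17.2 ± 0.825 to 43.7 ± 1.62 FPKM (1.30). Gm15441 (chromosome 3, 96555765 to 96566801, minus strand) spans Txnip, whose protein binds thioredoxin and restrains glucose uptake. It rose from 61.2, 59.6 and 62.0 to 105, 113 and 105 FPKM (0.81, limma adjusted p = 0.000163), and Txnip from 88.8 to 158 FPKM. Both antisense RNAs were above all controls in all 3 overexpression libraries.

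**Figure D3:**
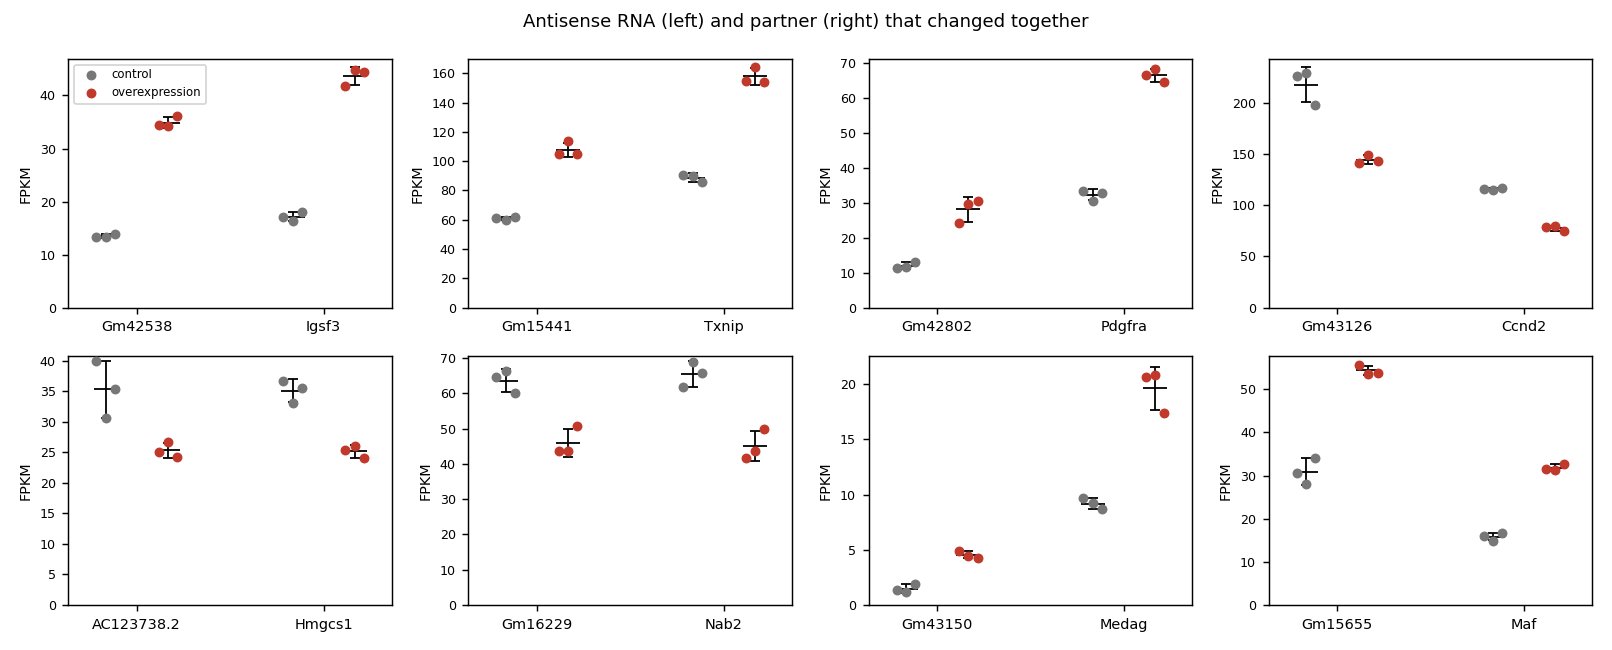
FPKM by library (points), mean (bar) and SD (whiskers) of 8 antisense RNAs on the left of each panel and their partners on the right, controls grey and overexpression red, from 0 on a linear axis; Gm42538, Gm15441, Gm42802, Gm43150 and Gm15655 rose and Gm43126, AC123738.2 and Gm16229 fell. The 8 pairs were picked because antisense RNA and partner passed in the same direction, so that the shared direction follows from the choice. In each of them the libraries of the groups do not overlap.

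The pairs that follow are ordered by the role of the partner, an order made after the values were seen, with no list tested and no count of like genes that did not move. Gm42802, wholly within exons of the platelet-derived growth factor receptor gene Pdgfra, was at 11.2, 11.6 and 13.1 FPKM in controls and 24.1, 29.5 and 30.6 in overexpression (1.16, limma adjusted p = 0.000256), beside Pdgfra at 32.3 and 66.4. Other pairs were Gm44040 and the calcium channel gene Itpr1 (antisense 6.45 to 12.5 FPKM), Gm29292 and the sphingosine kinase gene Sphk1 (2.07 to 4.17), and Peak1os and the pseudokinase gene Peak1 (2.17 to 3.67). AC163102.1 with the dystrobrevin gene Dtna (0.978 to 2.25 FPKM), Gm11149 with the adhesion gene Ncam1 (24.0 to 31.4) and Gm16897 with Cd34 (13.1 to 16.1) also rose with their partners. So did 2 antisense RNAs of the alpha-actinin gene Actn1, CT030161.2 (17.1 to 28.8 FPKM) and CT030161.3 (34.5 to 51.1).

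Of antisense RNAs whose partner acts in transcription or Wnt signalling, Gm15655 lies wholly within exons of Maf and rose from 30.9 ± 3.08 to 54.4 ± 1.14 FPKM (0.80, limma adjusted p = 0.000512), with Maf at 15.8 and 31.8 FPKM. Gm42846, wholly within the Myc-antagonist gene Mxd4, rose from 54.8 to 92.6 FPKM, Gm11175 in the AP-1 gene Jund from 16.9 to 25.6, Gm15283 across the hypoxia factor gene Hif1a from 16.5 to 22.2 and Gm15747 beside the glucose-sensing factor gene Mlxip from 1.93 to 3.80. Gm11670, inside Axin2, a Wnt pathway inhibitor that is itself a Wnt target, rose from 0.779 to 2.38 FPKM. AC122228.1, inside the oestrogen-response gene Greb1, rose from 0.159 to 0.971 FPKM and was the only one called with a control mean under 0.5. Each of these partners rose as well, among them Mxd4 from 19.0 to 32.1 FPKM and Jund from 13.1 to 18.4.

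Further antisense RNAs rose with a partner of other function: Gm15956 in Npc1, which exports cholesterol from lysosomes (7.28 to 16.3 FPKM), Gm28501 in the kinase gene Nek7 (14.3 to 24.9), AC131081.1 across the metalloproteinase gene Mmp19 (0.879 to 1.80), Gm16982 in the endocytic adaptor gene Ap2a2 (6.34 to 9.25), Gm17225 in the sulfatase gene Arsj (5.83 to 9.17) and 0610039K10Rik beside Serinc3 (24.8 to 32.6; Serinc3 62.7 to 77.4). Scpep1os with the carboxypeptidase gene Scpep1 rose from 36.8 to 50.1 FPKM, and Dhx58os, tail-to-tail with the RNA sensor gene Dhx58, from 5.59 to 8.45. Others of the 40 were Gm43150 and Gm43151 (below), Gm17035 (Ndrg1), AC155167.1 (Vwa8), Gm11739 (Prpsap1), 4930478K11Rik (Hhipl1), 1700018L02Rik (Ak3), E030037K01Rik (Cdkn2aip), Gm42917 (Trafd1), Gm13070 (Spsb1), Gm15701 (Rasa4) and AC160411.1 (Pdxk). Over the 40, log2 differences ran from 0.28 to 1.30 with a median of 0.57.

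Of the 21 that fell with their partner, AC123738.2 lies inside Hmgcs1, the HMG-CoA synthase gene of cholesterol synthesis. It was at 39.9, 30.6 and 35.5 FPKM in controls and 25.1, 26.7 and 24.3 in overexpression, with no overlap (-0.46, limma adjusted p = 0.0178), and Hmgcs1 fell from 35.1 to 25.2 FPKM.

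Some that fell have a partner that copies or repairs DNA or serves division, picked here as examples. Gm15792, inside the polymerase gene Pole, fell from 4.05 to 2.43 FPKM, Gm42529 inside Brca2 from 1.70 to 1.10, Gm11832 inside Rad54b from 3.36 to 1.46 and Brip1os beside the helicase gene Brip1, with no base in that gene's exons, from 23.0 to 18.2. The log2 differences of these 4 ran from -0.85 to -0.32. Gm17259 beside the centrosome gene Cetn3 fell from 3.67 to 2.36 FPKM and Gm16212 in Rtkn2 from 2.08 to 0.926, in addition to Gm43126 at Ccnd2. Gm42529 shares 5.53% of its exon bases with Brca2 and 61.3% with opposite-strand exons of all genes.

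Further examples of pairs that fell follow. Gm16229, 85.2% within exons of the Egr corepressor gene Nab2, fell from 64.6, 66.2 and 60.0 to 43.7, 43.6 and 50.7 FPKM (-0.46, limma adjusted p = 0.00702). 1700006J14Rik in the chromatin architectural gene Hmga2 fell from 6.96 to 4.98 FPKM, Gm16159 in the fibroblast growth factor receptor gene Fgfr1 from 8.85 to 6.60, Gm26771 beside the Wnt modulator gene Sfrp2 from 3.88 to 2.65 and Gm26716 in the syndecan gene Sdc3 from 19.2 to 13.1. Gm4524, tail-to-tail with the collagen hydroxylase gene P3h2, fell from 10.1 to 6.18 FPKM, and Gm15512 beside the GTPase activator gene Arhgap22 from 8.72 to 4.49. Gm33051 beside the ribosomal protein gene Rpl22l1 fell from 89.5 ± 8.61 to 67.1 ± 8.99 FPKM (limma adjusted p = 0.0494), a call kept in 6 of 16 alternatives. Gm44987 (Gga2), Gm28402 (Mturn), Gm15978 (Ttc7) and Gm14232 (Spef1) also fell with their partners.

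Some pairs moved together with few or no exon bases shared. Of the 84, 18 had under 10% of their exon bases in opposite-strand exons, 15 higher and 3 lower. The partner moved the same way for 7 of the 15 and for all 3. Among all called antisense RNAs it did so for 40 of 59 higher and 21 of 25 lower. How many antisense RNAs lay under 10%, called or not, is not given here, so no share called can be stated for them. With no exon base shared, 7.95% of 88 were called, against 11.4% of all genes tested. Gm43150 (chromosome 5, 149425653 to 149428962) and Gm43151 (149423363 to 149425099) share no exon base with Medag, an adipogenesis-linked gene that both lie inside. Gm43150 was at 1.34, 1.17 and 1.93 FPKM in controls and 4.90, 4.47 and 4.26 in overexpression (1.17, limma adjusted p = 0.000526). Gm43151 ran from 1.13 to 2.06 FPKM in controls and from 3.48 to 4.08 in overexpression (0.88, limma adjusted p = 0.00325). Medag rose from 9.18 ± 0.51 to 19.6 ± 1.91 FPKM. The groups of both antisense RNAs do not overlap, and reads from unspliced Medag RNA cannot be told apart from theirs if strand was not used.

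The other 5 that rose with no exon base shared had a partner that did not pass. Gm11816, inside Clvs1, which encodes a clathrin-associated lipid-binding protein, was the strongest of the 88 with no shared base. It was at 14.9, 15.8 and 17.4 FPKM in controls and 26.1, 25.4 and 20.8 in overexpression, with no overlap, and Clvs1 was at 3.85 ± 0.0732 and 3.77 ± 0.488 FPKM. Gm9869 inside Uaca was at 2.21, 1.89 and 1.99 against 3.22, 3.15 and 3.96 FPKM, with Uaca at 10.7 and 11.7. BC051226, whose promoter is shown above, was at 2.97, 2.84 and 2.32 against 4.24, 4.22 and 4.18 FPKM (0.49, limma adjusted p = 0.00715), beside the chromatin gene Daxx at 29.4 ± 2.16 and 32.7 ± 3.44. 2900093K20Rik in Oser1 rose from 1.56 to 2.60 FPKM and 1700048M11Rik in Smim11 from 0.888 to 1.55. Of these 5, only Gm11816 differed from its partner by the direct test of pairs given below.

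In all, 22 of the 84 had a tested partner that did not pass, and a p that misses the threshold does not show that the partner stayed the same. Beside those 5, the higher ones were Gm5577 (H1fx), 4930599N23Rik (Kdm7a; 3.57 to 6.19 FPKM), AC110817.1 (Fst), Gm40578 (Tnfaip2), Gm29434 (Mknk1), Gm42984 (Tapt1), 6330562C20Rik (Cers2), A930015D03Rik (H2-T22), Gm11802 (Tox), Gm16028 (C130026I21Rik), Gm12764 (Lsm14a), Gm13748 (Klf7) and Gm13556 (Dennd1a). The 4 lower ones were Gm15540 (Kyat3), Gm16350 (Arhgef10), Gm11491 (Ska2) and 4930404A12Rik (Atp6v0a2; 16.1 to 13.6 FPKM).

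Whether an antisense RNA and its partner changed by different amounts was tested on the difference of their log2(FPKM + 1) values. That difference is called the ratio here. With 1 added, it departs from the ratio of the FPKM values where either gene is low. A pair at unlike levels can then show a change although both genes changed by the same fold. Of 832 antisense pairs, 4 ratios rose and 1 fell (limma, adjusted over 2984 opposite-strand pairs), and 78 had an unadjusted p under 0.05. Over all 2984 pairs 2.28% were called. The ratio of Gm11816 to Clvs1 rose by 0.58 (limma adjusted p = 0.0161). AC110817.1 (Gm47040 in GENCODE M21), head-to-head with the follistatin gene Fst with 19.0% shared, was at 6.22, 4.73 and 5.08 FPKM in controls and 8.13, 9.48 and 9.10 in overexpression, while Fst was at 24.5 and 25.7, a ratio change of 0.58 (limma adjusted p = 0.0384).

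Gm5577, head-to-head with the linker histone gene H1fx with 10.1% of its bases in that gene's exons and 22.7% in those of all opposite-strand genes, was at 63.2, 60.2 and 58.1 against 82.0, 91.3 and 87.5 FPKM. H1fx was at 16.4 ± 2.58 and 13.8 ± 2.14 FPKM, and the ratio rose by 0.75 (limma adjusted p = 0.0442). Gm45812, 90.1% within exons of the kinesin gene Kifc3, did not pass by itself (8.67 ± 1.54 and 10.8 ± 0.598 FPKM), nor did Kifc3 (4.78 and 3.98), but the ratio rose by 0.51 (limma adjusted p = 0.0434). The ratio that fell was that of 1700042O10Rik to Ddc, the decarboxylase gene of dopamine and serotonin synthesis. It fell by 0.51 on the log2(FPKM + 1) scale (limma adjusted p = 0.0384). There Ddc rose 2.70-fold, from 0.337 ± 0.0786 to 0.911 ± 0.179 FPKM, and the antisense RNA was at 0.566 in both groups. At these low levels adding 1 understates the fall. None of the 5 passed without control 2 and overexpression 3 or without any 1 of the overexpression libraries. Without control 1, 3 passed, and without control 2 or control 3, 1 each.

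**Figure D4:**
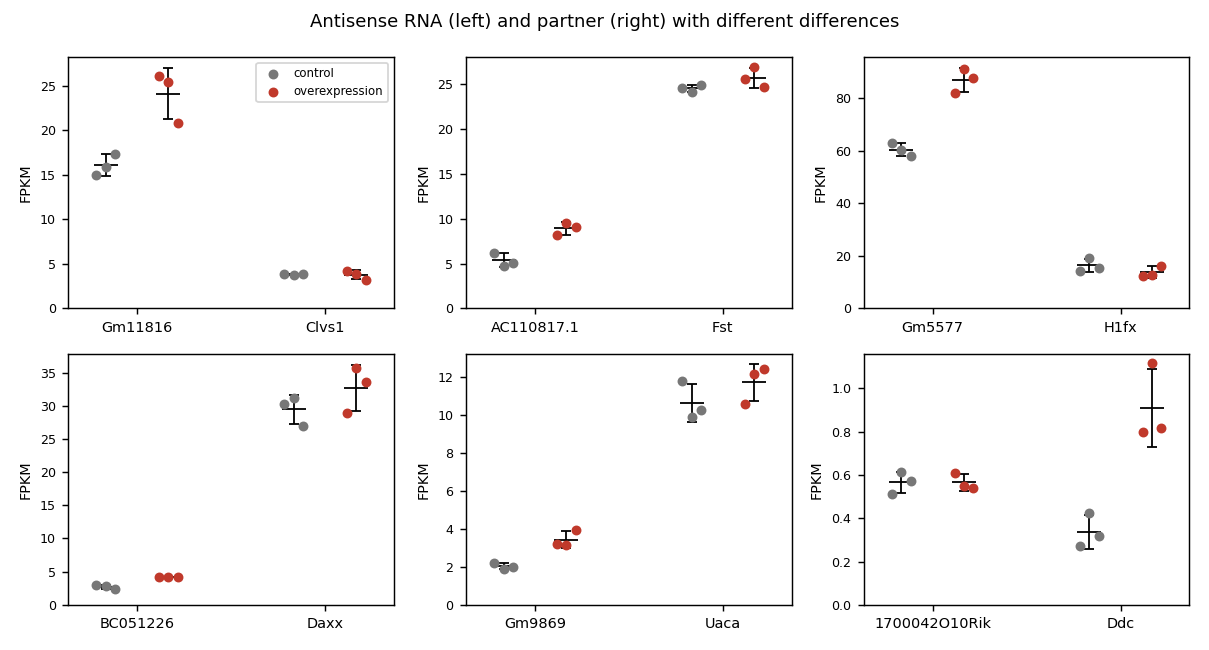
FPKM by library (points), mean (bar) and SD (whiskers) of 6 antisense RNAs (left in each panel) and their partners (right), controls grey and overexpression red, from 0 on a linear axis. Gm11816, AC110817.1, Gm5577, BC051226 and Gm9869 rose while their partners did not pass. For 1700042O10Rik the partner Ddc rose and the antisense RNA was at 0.566 FPKM in both groups. The 6 pairs were picked for these results. The ratios of BC051226 to Daxx and of Gm9869 to Uaca did not pass, so a different change is not shown for them.

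Antisense RNAs with a known name are described as examples chosen after their values were seen, and none of these examples passed the threshold. This follows in part from the choice. Prss23os, Peak1os, Scpep1os, Dhx58os and Brip1os, named after their partners, did pass and are given above. Dnm3os, the host RNA of the microRNAs miR-199a and miR-214, which lies inside Dnm3 with no shared exon base, was at 5.83, 5.05 and 5.70 FPKM in controls and 7.72, 8.06 and 5.95 in overexpression (0.33, limma adjusted p = 0.0988). Its partner was at 0.145 and 0.172 FPKM, far below it. Airn was at 2.71 ± 0.492 and 2.64 ± 0.312 FPKM beside Igf2r at 36.1 and 34.1. Kcnq1ot1 was at 1.06 ± 0.0765 and 0.864 ± 0.0917, with Kcnq1 at 0.105 and 0.165.

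Tug1, a widely expressed long RNA, was at 12.0 ± 1.74 and 12.7 ± 2.30 FPKM, while Morc2a, its head-to-head neighbour, rose from 19.1 to 25.1 (0.37, limma adjusted p = 0.00884). Runx2os1 was at 3.74, 4.44 and 5.67 against 2.97, 3.79 and 5.47 FPKM, which overlap, while Runx2, the master regulator of osteoblasts, rose from 12.1 ± 0.692 to 14.6 ± 0.501 (0.25, limma adjusted p = 0.0462). The ratios of Tug1 to Morc2a and of Runx2os1 to Runx2 did not pass (limma adjusted p = 0.271 and 0.28). Dlx1as was at 3.26 ± 0.416 and 2.44 ± 0.575 FPKM, Junos, beside the AP-1 gene Jun, at 3.32 ± 0.164 and 2.68 ± 0.44, and Zeb2os at 2.88 in both groups. Hotairm1 in the Hoxa cluster was at 0.841 and 1.09 FPKM, Emx2os at 1.64 and 1.81, Dlx6os1 at 1.03 and 1.11 and Gt(ROSA)26Sor at 5.24 and 4.83.

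**Figure D5:**
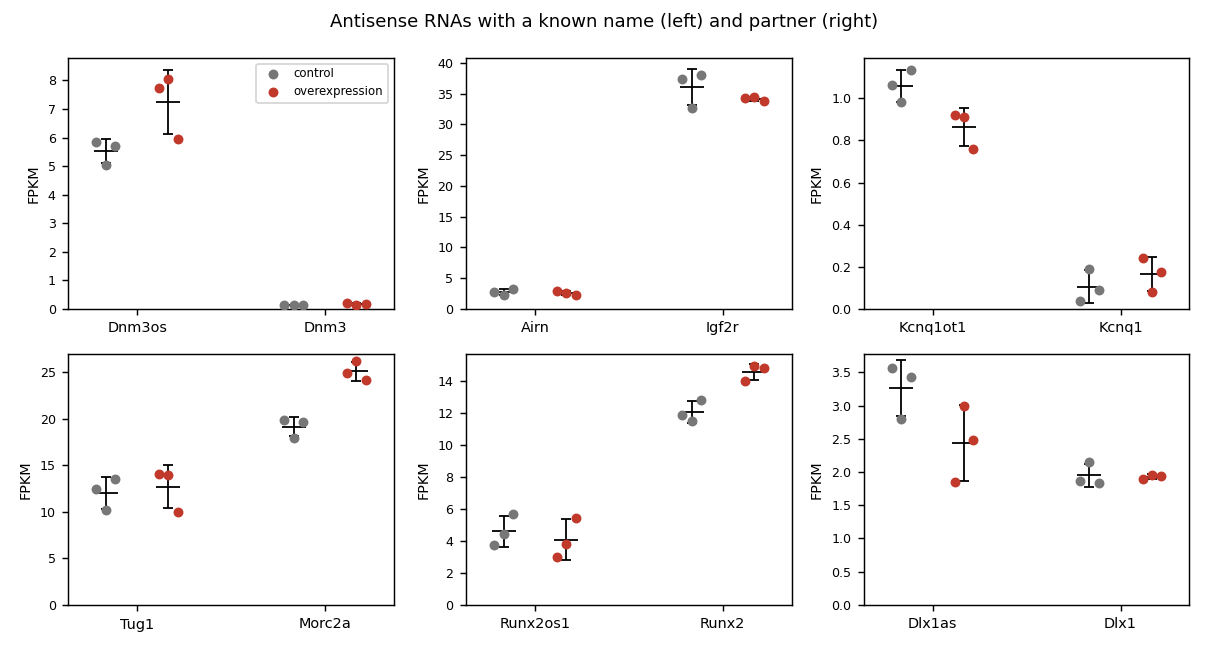
FPKM by library (points), mean (bar) and SD (whiskers) of 6 antisense RNAs with a known name (left in each panel) and their partners (right), controls grey and overexpression red, from 0 on a linear axis. The 6 antisense RNAs were picked after their values were seen and none passed the threshold, while the partners Morc2a and Runx2 rose.

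Of 23 tested genes of nuclear RNA decay, the machinery that removes many antisense and upstream transcripts, 0 rose and 1 fell, with a median log2 difference of -0.08 beside -0.01 over all genes tested. The one that fell was Exosc8, an exosome core subunit, from 10.5 ± 0.355 to 7.97 ± 0.371 FPKM (-0.36, limma adjusted p = 0.0103). Of 26 genes that edit, process or sense double-stranded RNA, which sense and antisense RNAs can form together, 5 rose and 0 fell, with a median of -0.05. Over all genes tested 6.01% rose and 5.42% fell, and nothing particular to either short list is read from its count. Adarb1, an adenosine deaminase that edits such RNA, rose from 2.74 ± 0.142 to 6.64 ± 0.188 FPKM (1.03, limma adjusted p = 7.27e-05). The RNA sensors Oas2 (45.6 to 60.1 FPKM), Oas1a (43.5 to 59.4) and Oas3 (6.42 to 8.20) and the RNA-binding Stau1 (22.3 to 26.5) were the other 4.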

How the data were processed

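Fragments were trimmed with cutadapt 2.5, aligned with HISAT2 2.1.0 to mm10 and counted with featureCounts 1.6.3, per the submitters' processing notes. The sources used here name neither an annotation release nor a strand setting nor the differential test. The authors deposited FPKM per gene and library, with their own log2 fold change and p-values, which served here only for a comparison of calls. The authors' log2 values and p-values enter no test.

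Gene models, exon lengths and overlaps came from GENCODE M21 (GRCm38, which is mm10), with bedtools 2.31.1. For 15776 of 15796 genes with a model, totals that made FPKM times length whole gave reads per library (93.7% to 94.9% of values up to 1000 reads whole within 0.05 reads). Tests used limma 3.58.1 under R 4.3.3 (lmFit, eBayes with trend) on log2(FPKM + 1) of genes whose mean FPKM reached 0.5, two-sided, Benjamini-Hochberg at 0.05, 3 against 3 libraries, no covariate. Adding 1 understates the change of low genes. The fit was also tested on simulated data. Gene names follow the deposited table; 64 antisense symbols differ in M21.

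Named genes are every antisense RNA past the threshold, the 10 strongest, the 3 on each side of the level limit, pairs whose ratio passed, and up to 4 of each list. Stau1 and the RNAs with known names were added after their values were seen. The members, lists and rules were chosen with earlier results of these data known. Of the genes these rules name, 2 called antisense RNAs, both among the 31 calls kept in all alternatives, and 1 of the 10 strongest are not reported here.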

Additional observations from a re-analysis of the deposited data

How the results depend on the processing

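All called antisense RNAs and partners kept their direction under every alternative run, and 31 of the 84 calls (25 higher, 6 lower) passed in all of them. Of the 84, 36 passed with each library left out, 45 without the 2 deepest libraries, 65 with voom on recovered reads and 70 with the replicate block. With limma's arrayWeights, 91 antisense RNAs were higher and 56 lower, 84 partners were lower, and the genes numbered 1325 higher and 1320 lower. When the 2 deepest libraries were dropped, 36 antisense RNAs were higher, 28 partners lower and 466 genes lower. Antisense to partner ratios numbered 1 higher at a pseudocount of 0.1 and 1 at 0.5, 0 higher and 0 lower with the replicate block or without the 2 deepest libraries, and 0 lower at a mean FPKM of at least 1, where 1700042O10Rik is not tested. With each library omitted in turn, antisense RNAs numbered 38 to 53 higher and 11 to 25 lower, with 36 to 55 and 25 to 39 partners, 508 to 729 and 410 to 609 genes, and 0 to 4 and 0 to 0 ratios. The cause was not tested. Labels number the replicates 1 to 3 in both groups. Across genes, deviations of same-numbered libraries from their group means correlated at r = 0.195, -0.278 and -0.026. Unlike-numbered ones reached 0.4 (control 2 with overexpression 3) and -0.34 (control 1 with overexpression 3). With 3 libraries per group, these values cannot show whether the numbers pair samples. With the replicate block 57 antisense RNAs were higher and 29 lower, 55 and 36 partners, and 711 and 622 genes. Whether read depth limits the calls of weak antisense RNAs was not tested.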
